A study of Mus musculus with 10 samples.

Results

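Apolipoprotein transcripts were followed in 10 RNA-seq libraries of cells sorted from mouse liver. The genes were Apoa1, Apoa2, Apoa4, Apoa5, Apob, Apoc1, Apoc3, Apoe, Apoh and Apom, taken by name, 10 of the 29972 genes that the files hold after transcripts are summed. All 10 were found, and all 10 were among the 14765 genes that passed the filter of at least 1 TPM in at least 3 libraries. TPM is an abundance per transcript length that adds up to a fixed total in each library, so levels can be compared between genes but the number of reads behind them is unknown.

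The libraries fall into 3 groups. Hepatocyte-derived peripheral cholangiocytes (HpC, 4 libraries) came from Alb-Cre+/-;Rbpjf/f;Hnf6f/f mice of postnatal days P124, P151, P144 and P139 in the order HpC1 to HpC4. Peripheral cholangiocytes (pC, 3 libraries) came from Rbpjf/f;Hnf6f/f mice without Cre of P151, P119 and P142. Hepatocytes (H, 3 libraries) came from Alb-Cre+/-;Rbpjf/f;Hnf6f/f mice of P134, P139 and P139. All mice were of mixed C57BL/6, FVB and CD1 background and carried the floxed alleles of Rbpj, through which Notch receptors act on DNA, and of Hnf6 (Onecut1), a regulator of bile duct development. The Cre transgene is driven by the promoter of albumin, a hepatocyte gene that is also active in fetal liver progenitors. HpC and pC were sorted by flow cytometry from nonparenchymal cells after extended enzymatic digestion, and H after collagenase perfusion. HpC and pC thus differ in Cre as well as in origin. Both differ from H in digestion as well as in cell type, and pC differ from H also in Cre, which HpC and H share. These differences cannot be told apart. The labels do not say whether H2 and H3, of 1 age, came from separate animals, so p-values that involve H may in part measure technical spread.

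Apolipoproteins are the protein part of the particles that carry lipid in blood. Hepatocytes assemble very low density lipoprotein on apolipoprotein B, add exchangeable apolipoproteins of the A, C and E types, and release apolipoprotein A-I for high density lipoprotein, while LDL receptor family members recognise apolipoproteins B and E and take the particles up. Cholangiocytes are the epithelium that lines bile ducts. The comparisons ask how much of this hepatocyte programme is present in cholangiocytes that formed from hepatocytes, in ordinary cholangiocytes and in hepatocytes.

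The genes lie in a few places of the mm10 genome. Apoa1 (ENSMUSG00000032083, chr9:46228580-46230466), Apoc3 (ENSMUSG00000032081, chr9:46232933-46235636), Apoa4 (ENSMUSG00000032080, chr9:46240696-46243459) and Apoa5 (ENSMUSG00000032079, chr9:46268633-46271919) form a cluster of 43.3 kb on chromosome 9. Apoe (ENSMUSG00000002985, chr7:19696109-19699188) and Apoc1 (ENSMUSG00000040564, chr7:19689481-19692660) share a cluster of 27.6 kb on chromosome 7 with Apoc2 and Apoc4. Apob (ENSMUSG00000020609, chr12:7977648-8016835), Apoa2 (ENSMUSG00000005681, chr1:171225054-171226379), Apoh (ENSMUSG00000000049, chr11:108343354-108414396) and Apom (ENSMUSG00000024391, chr17:35128997-35132050) lie alone. The sequences just before the annotated starts are shown for Apob and Apoe, whose levels differed between the cholangiocyte groups, and for Apoa1 and Apoa5 of the chromosome 9 cluster, whose levels did not pass that test. They are from RefSeq promoters on GRCm38.p6 (the mm10 assembly), written 5′ to 3′ on the gene's strand up to the base before the GENCODE start, in lower case with the letters TATAAA in capitals.
Apob (chr12:7977427-7977647, plus strand): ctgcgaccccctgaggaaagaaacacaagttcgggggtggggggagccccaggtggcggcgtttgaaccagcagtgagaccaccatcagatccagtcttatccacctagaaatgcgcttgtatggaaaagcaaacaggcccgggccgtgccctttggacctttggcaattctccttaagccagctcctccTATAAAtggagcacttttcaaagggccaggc
Apoe (chr7:19699189-19699438, minus strand): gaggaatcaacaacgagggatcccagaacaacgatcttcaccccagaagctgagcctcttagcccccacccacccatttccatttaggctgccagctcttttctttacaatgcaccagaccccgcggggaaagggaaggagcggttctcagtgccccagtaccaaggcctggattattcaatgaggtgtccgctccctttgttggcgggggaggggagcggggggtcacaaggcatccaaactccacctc
Apoa1 (chr9:46228380-46228579, plus strand): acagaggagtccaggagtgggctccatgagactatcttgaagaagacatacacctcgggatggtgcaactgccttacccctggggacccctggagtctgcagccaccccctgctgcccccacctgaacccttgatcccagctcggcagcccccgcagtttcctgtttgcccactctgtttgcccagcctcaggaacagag
Apoa5 (chr9:46268383-46268632, plus strand): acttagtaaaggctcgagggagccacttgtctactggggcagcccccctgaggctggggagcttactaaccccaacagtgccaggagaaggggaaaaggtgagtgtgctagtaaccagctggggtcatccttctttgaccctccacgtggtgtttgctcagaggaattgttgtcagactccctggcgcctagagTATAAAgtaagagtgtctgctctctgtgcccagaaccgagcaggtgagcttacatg

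The TATAAA of Apob began 31 bases before the GENCODE start of the gene, and that of Apoa5 began 56 bases before it. Promoters of 8 of the 10 genes, all but Apoc1 and Apoc3, were in the RefSeq table, 12 promoters in all with alternative starts, each covering 250 bases before to 50 bases after a start. Of these 12, 5 held TATAAA on either strand, those of Apoa2, Apoa5, Apob and an alternative start of Apoe, against 13.6% of all 32851 promoters of that length. Both promoters of Apoa5 hold the same TATAAA, which is thus counted more than once. The match of Apoa2 began 212 bases before its RefSeq start, and those of Apoe 100 and 96 bases before theirs. CAAAGTCCA, a core of the site of the hepatocyte factor HNF4, was in 0 of the 12 and in 0.475% of all promoters. The HNF1 motif, searched as a palindrome with an open centre base, was in 0 of the 12 and in 0.00913% of all. Both strings are so rare over all promoters that 0 of 12 does not show whether these genes have HNF4 or HNF1 sites. The 12 promoters held from 1 to 12 CG pairs with a median of 4.5, against a median of 7 over all promoters. These matches describe the letters in the windows and none was tied to a level.

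Levels below are TPM divided by a factor per library that aligns the bulk of genes (scaled TPM). Tests are by limma on log2(scaled TPM + 1), a scale that understates changes of low genes, with Benjamini-Hochberg adjustment over all genes tested at 5%. Markers went with the labelled cell types. The sum of 8 cholangiocyte markers was 1669 to 2538 scaled TPM across HpC, 5100.4 to 5310.4 in pC and 18.7 to 27.3 in H, while the sum of 22 hepatocyte markers was 3123 to 6319 in HpC, 1124 to 2970 in pC and 93275 to 103723 in H. Such sums weigh abundant genes most. Of the 8 cholangiocyte markers, 1 passed between HpC and pC, against 4.54% of all genes. It was Spp1, 4.43-fold lower in HpC (adjusted p = 0.00149, limma). The estimates of 3 of the 8 were above 0 and those of 5 below. Of the 22 hepatocyte markers 0 passed, with 17 estimates above 0 and 5 below. Rbpj was at 4.79 ± 0.988 (SD) across the 4 HpC libraries, 6.06 ± 0.682 across the 3 of pC and 1.35 ± 0.210 across the 3 of H. Onecut1 was at 32.0 ± 12.2 in HpC, 72.5 ± 9.44 in pC and 81.0 ± 32.2 in H. Both are sums over the whole gene and do not show whether the floxed exons were present. HpC1 stood apart in 10 pancreatic acinar genes, which summed to 241335 scaled TPM there and to at most 1036 in any other library, and HpC2 in 10 squamous epithelium genes, at 39866 against at most 12.7 elsewhere. The parts of these 2 libraries in the results were not tested beyond the values without them given below.

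Every apolipoprotein gene was lower in both cholangiocyte groups than in hepatocytes. Against H, 10 of the 10 were lower in HpC, where 59.9% of all genes tested were called in either direction and 29.2% were called lower, with folds from 20.8 (Apoe) to 196 (Apoa4) and adjusted p from 1.09e-06 to 0.000203 (limma). In pC, 10 of the 10 were again lower than in H, where 59.6% of all genes were called in either direction and 28.6% were called lower, with folds from 8.80 (Apoe) to 257 (Apoa5) and adjusted p from 9.27e-07 to 0.000156. The median log2 difference over the 10 genes was -6.38 in HpC and -7.33 in pC, against 0.08 and 0.11 over all genes tested. No library of HpC or pC reached the lowest hepatocyte library in any of the 10 genes, a separation that 60.5% of all genes tested had between HpC and H and 70.3% had between pC and H. The 2 comparisons share the hepatocyte libraries. On TPM as deposited the folds of Apoe were 9.73 in HpC and 2.99 in pC, so their size depended on scaling. Without HpC1 and HpC2, 10 of the 10 were again lower in HpC. In bulk libraries, fewer cells of a type and less RNA per cell cannot be told apart.

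**Figure D1:**
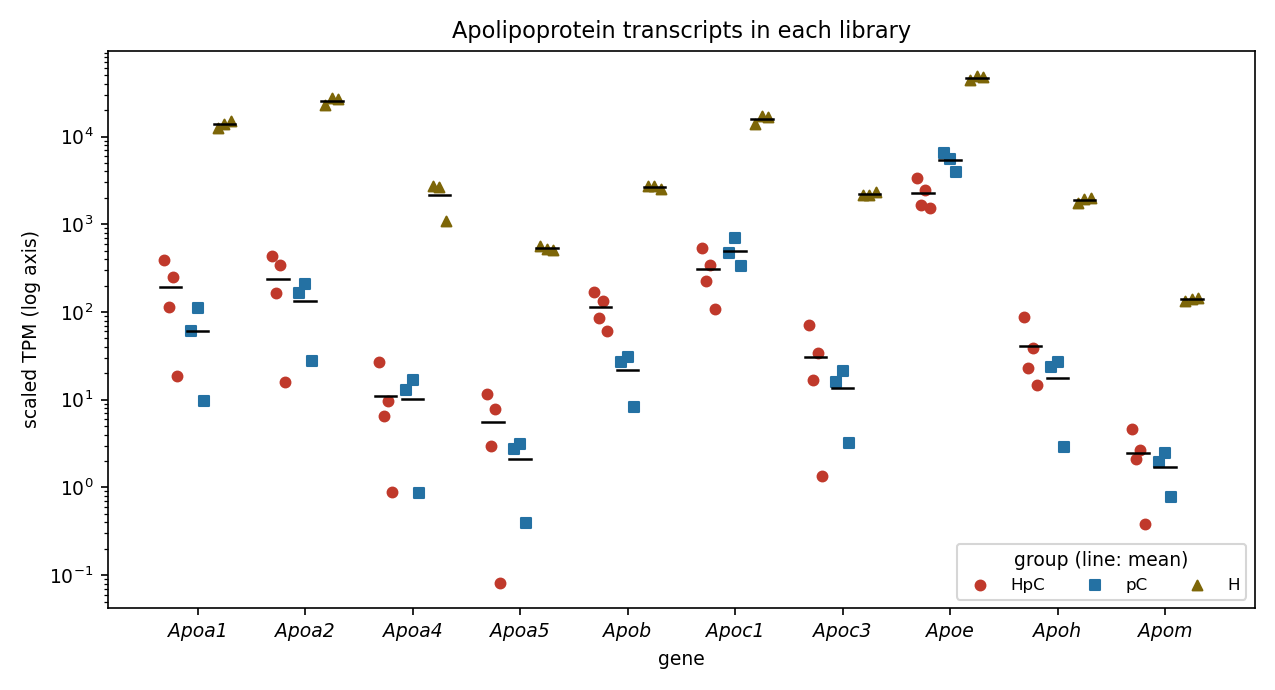
Scaled TPM (log axis) of each apolipoprotein gene in each library, with HpC as red circles, pC as blue squares, H as brown triangles and a black line at each group's mean. All hepatocyte points lie above all cholangiocyte points of the same gene, Apob is higher in HpC than in pC, and Apoe is higher in pC than in HpC.

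Between the cholangiocyte groups the genes did not move together. Apob was higher in HpC than in pC and Apoe was lower, and the other 8 did not pass the test. Of the genes tested, 4.54% passed in this comparison, 1.99% as higher and 2.55% as lower. The estimates of 8 of the 10 genes were above 0, with a median log2 difference of 0.58 against -0.01 over all genes. The groups did not overlap in 2 of the 10, Apob and Apoe, and in 16.5% of all genes tested. Without HpC1 and HpC2 together 0 of the 10 were higher and 1 was lower. Without HpC4 and pC3, the libraries lowest in hepatocyte markers, 1 was higher and 0 were lower.

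**Figure D2:**
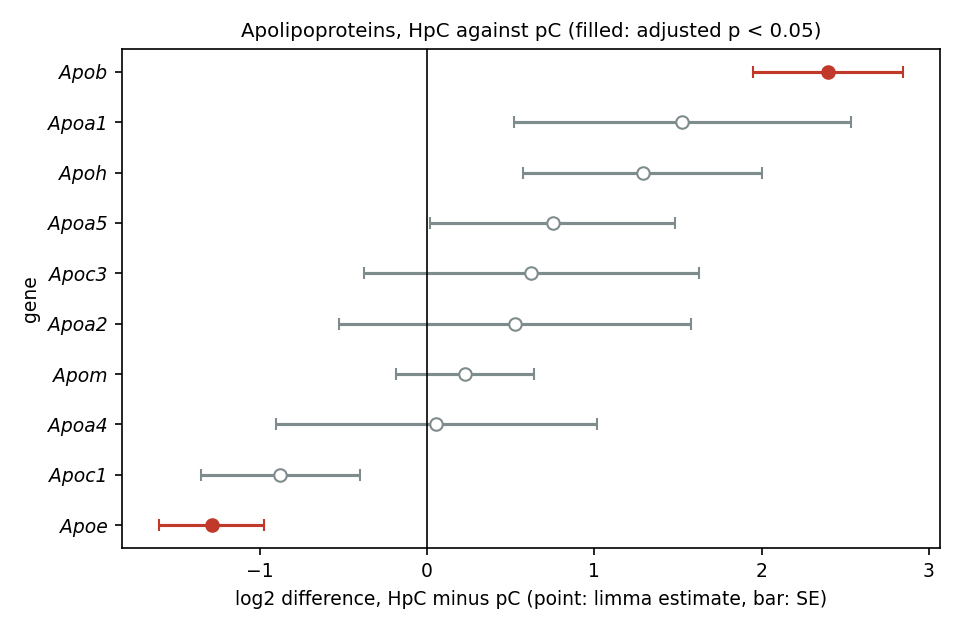
Difference between HpC and pC on the log2(scaled TPM + 1) scale for each apolipoprotein gene, as the limma estimate (point) with its standard error (bar). Points are filled where the adjusted p over all genes tested is under 0.05, which holds for Apob at 2.40 and Apoe at -1.29.

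Apob encodes apolipoprotein B, the large structural protein without which very low density lipoprotein particles do not form. Its level was 169.7, 86.2, 133.8 and 60.7 scaled TPM across HpC1 to HpC4, 26.6, 30.7 and 8.21 across pC1 to pC3 and 2740.4, 2698 and 2509.8 across H1 to H3. The lowest HpC library was thus above the highest pC library, and all were far below the hepatocytes. The group means were 113 ± 48.6 (SD, n = 4) in HpC and 21.8 ± 12.0 (n = 3) in pC, a 5.16-fold difference. The log2 difference was 2.40 ± 0.45 (SE), with a 95% interval of 1.40 to 3.39 and an adjusted p of 0.0148 (limma). It was 1.83 to 2.73 over 24 alternative settings, and missed the threshold in 2 of them, when HpC and pC were fitted without H (adjusted p = 0.0542) and without HpC1 and HpC2 (adjusted p = 0.0685).

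Apoe encodes apolipoprotein E, the ligand through which remnant particles are taken up by LDL receptor family members, and a protein that macrophages and other cells also make. It was the most abundant of the 10 transcripts in all 10 libraries. Its level was 3372, 1641, 2488 and 1522 scaled TPM across HpC1 to HpC4, 6579.8, 5532 and 3926 across pC1 to pC3 and 44646, 48944 and 47464 across H1 to H3. Every HpC library was below every pC library, so the order of the groups was H, then pC, then HpC, without overlap. The means were 2256 ± 859.6 (SD, n = 4) in HpC and 5346 ± 1337 (n = 3) in pC, 2.37-fold apart. The log2 difference was -1.29 ± 0.31 (SE), with a 95% interval of -1.99 to -0.59 and an adjusted p of 0.0472 (limma). The direction held in all 24 alternative settings, from -1.72 to -1.12, but 15 of them missed the threshold, among them the removal of any 1 library other than HpC1.

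Macrophage markers were present at overlapping low levels in both cholangiocyte groups, and their part in the Apoe values was not tested. The 11 markers summed to 15.4 to 40.1 scaled TPM across HpC, 26.0 to 37.1 in pC and 0.557 to 1.08 in H, and 0 of the 8 that could be tested passed in HpC against pC (limma; 0 also at an unadjusted p under 0.05). Stellate cell and fibroblast markers (11 genes) summed to 41.8 to 121 in HpC, 55.9 to 70.7 in pC and 2.89 to 3.75 in H. Of the 10 tested, 1 passed in HpC against pC and 6 had an unadjusted p under 0.05, and in 5 the groups did not overlap, against 16.5% of all genes. The estimates of 8 of the 10 were above 0 and those of 2 below. Rgs5 was lower in HpC without overlap, with a log2 difference of -1.01 ± 0.26 (adjusted p = 0.0578, limma). The gene that passed was Col3a1, a fibrillar collagen, at 11.7, 4.86, 7.93 and 6.15 scaled TPM across HpC1 to HpC4, against 2.66, 2.497 and 2.87 across pC1 to pC3. Its log2 difference was 1.18 ± 0.24 (adjusted p = 0.0219, limma), and without HpC4 and pC3 no gene of the list passed. Without HpC1 and HpC2, 1 gene of the list was called higher and 1 lower. The part of such cells in the Apob and Apoe differences was not tested. Endothelial markers (8 genes) summed to 8.14 to 18.2, 9.01 to 14.9 and 2.62 to 3.05. The 7 markers of enterocytes, another cell type rich in Apob and Apoa4, summed to 1.74, 12.0, 1.58 and 0.443 scaled TPM across HpC1 to HpC4, 0.272 to 0.761 in pC and 49.4 to 73.5 in H. Rbp2 made up most of the sum in HpC2, at 11.4, and was at 0 in all pC libraries, and Fabp2 was at 0.182 to 1.08 in HpC, 0.0597 to 0.433 in pC and 49.1 to 73.5 in H. Lct was at 0.0344 to 0.308 over the cholangiocyte libraries, and Alpi, Sis, Cdx1 and Cdx2 were below 0.1 in each of them. The part of these transcripts in the Apob values was not tested.

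Apoc1 encodes apolipoprotein C-I, a small exchangeable protein and an inhibitor of lipoprotein uptake, and lies next to Apoe. It was at 543, 225, 346 and 107 scaled TPM across HpC1 to HpC4, against 473, 698 and 332 across pC1 to pC3 and 14071, 17334 and 16792 across H1 to H3. HpC1 and HpC3 lay inside the range of pC and the other HpC libraries below it. The log2 difference between HpC and pC was -0.88 ± 0.48 (adjusted p = 0.382, limma), with a 95% interval of -1.94 to 0.18. Apoe and Apoc1 were the 2 genes of the 10 with estimates below 0.

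The genes for high density lipoprotein proteins had a wide spread within each cholangiocyte group. Apoa1, the main structural protein of high density lipoprotein and an activator of the enzyme LCAT, was at 389.7, 113, 248 and 18.5 scaled TPM across HpC1 to HpC4, against 61.3, 110.1 and 9.80 across pC1 to pC3 and 12589.7, 13818 and 14917 across H1 to H3. HpC1, HpC2 and HpC3 were above all pC libraries, HpC2 narrowly, and HpC4 lay within the range of pC. Its log2 difference between HpC and pC was 1.53 ± 1.01 (adjusted p = 0.479, limma), and the 95% interval of -0.72 to 3.77 includes differences as large as that of Apob. Apoa2, the second structural protein of these particles, was at 432, 166, 341 and 15.8 in HpC, at 163, 207 and 27.6 in pC and at 23066, 27406 and 26779 in H. HpC1 and HpC3 were above all pC libraries, HpC4 was below them and HpC2 was within their range, with a log2 difference of 0.53 ± 1.05 (adjusted p = 0.837).

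Apoa4, an apolipoprotein of intestinal and hepatic particles, was at 27.1, 6.55, 9.78 and 0.876 scaled TPM across HpC, at 13.1, 17.0 and 0.863 in pC and at 2725, 2687 and 1084 in H. H3 was well below the other hepatocyte libraries, and the ranges of the cholangiocyte groups overlapped. The log2 difference between HpC and pC was 0.06 ± 0.96 (adjusted p = 0.984, limma), with a 95% interval of -2.08 to 2.19. Apom, the lipocalin that carries sphingosine-1-phosphate on high density lipoprotein, was the lowest of the 10 by group mean in all groups, at 0.385 to 4.67 in HpC, 0.787 to 2.45 in pC and 132 to 145 in H. Its log2 difference between HpC and pC was 0.23 ± 0.41 (adjusted p = 0.818).

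The regulators of triglyceride clearance were also at low levels in both cholangiocyte groups. Apoc3, an inhibitor of lipoprotein lipase and of remnant uptake, was at 71.0, 16.8, 34.0 and 1.36 scaled TPM across HpC1 to HpC4, against 16.0, 21.4 and 3.22 across pC1 to pC3 and 2179.5, 2168 and 2324 across H1 to H3. Apoa5, which promotes lipolysis of triglyceride-rich particles, was at 11.6, 2.99, 7.77 and 0.0824 in HpC, at 2.75, 3.12 and 0.390 in pC and at 568, 529 and 508 in H. In both genes HpC1 was the highest cholangiocyte library and HpC4 the lowest. Their log2 differences between HpC and pC were 0.62 ± 0.999 (adjusted p = 0.794) and 0.75 ± 0.73 (adjusted p = 0.643, limma).

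Apoh encodes beta-2-glycoprotein I, a plasma protein that binds anionic phospholipid and shares the apolipoprotein name. It was at 86.8, 22.9, 39.2 and 14.6 scaled TPM across HpC1 to HpC4, against 23.6, 26.6 and 2.91 across pC1 to pC3 and 1751, 1936 and 1992 across H1 to H3. HpC1 and HpC3 were above pC and the other HpC libraries lay within its range. The log2 difference between HpC and pC was 1.29 ± 0.71 (adjusted p = 0.391, limma), with a 95% interval of -0.30 to 2.88.

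As a share of the mean hepatocyte level, the median apolipoprotein gene stood at 3.28%, 1.01%, 1.87% and 0.206% over HpC1 to HpC4, against 0.862%, 1.06% and 0.149% in pC1 to pC3. The mean of these medians was 1.59 ± 1.31% (SD, n = 4) in HpC and 0.690 ± 0.479% (n = 3) in pC. The median of the 22 hepatocyte markers stood at 4.08%, 1.27%, 1.94% and 0.266% in HpC and at 1.23%, 1.49% and 0.301% in pC. Each library's apolipoproteins and markers were thus at like shares, and HpC4 and pC3 were lowest in both. On TPM as deposited the mean of the medians was 3.03% in HpC and 2.02% in pC. The scaling factors that TPM was divided by were 0.668 to 1.61 for HpC, 1.53 to 1.59 for pC and 0.499 to 0.585 for H. In the limma fits on log2(TPM + 1), the median difference over all genes was 1.09 higher before scaling for pC against H, and 0.79 higher for HpC against H.

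Shares differed between the genes. Apoe kept the highest one, at 14.0%, 11.8% and 8.35% of hepatocytes in pC1 to pC3 and at 7.17%, 3.49%, 5.29% and 3.24% in HpC1 to HpC4. Apob followed in HpC at 6.41%, 3.26%, 5.05% and 2.29%, but stood at 1.003%, 1.16% and 0.310% in pC. Apoc1 was at 2.94%, 4.34% and 2.07% in pC and at 0.668% to 3.38% in HpC. The other genes were at 0.0154% to 4.58% in HpC and at 0.0399% to 1.76% in pC. Between the highest and the lowest share in a library lay a factor of 5.73 in HpC1, the smallest of the cholangiocyte libraries. The largest were 210.1 in HpC4 and, nearly the same, 209.45 in pC3. The lowest share in HpC4 was that of Apoa5, at 0.0824 scaled TPM, a value near 0 with unknown counting error. In hepatocyte libraries, each set against the mean of the other 2, shares ran from 40.1% (Apoa4 in H3) to 145% (Apoa4 in H1). On TPM as deposited, Apoe stood at 40.5%, 34.8% and 25.1% of hepatocytes in pC1 to pC3, and at 7.62% to 14.5% in HpC.

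The mix of apolipoprotein transcripts differed accordingly. The 10 genes together took 5.77% to 6.11% of the deposited TPM of a hepatocyte library, 0.684% to 1.12% of a pC library and 0.263% to 0.528% of an HpC library. Apoe made 41.4% to 42.7% of that sum in H, 66.0% to 87.4% in HpC and 83.2% to 91.1% in pC. Apob made 2.19% to 2.62% of it in H, 3.32% to 3.78% in HpC and 0.190% to 0.462% in pC. Apoa1 and Apoa2 made 12.3% and 22.9% of the sum in H on average, 5.11% and 6.50% in HpC, and 0.905% and 1.99% in pC. The ratio of Apoe to Apob, taken after the values had been seen and so given without a test, was 16.3 to 18.9 in H, 18.6 to 25.1 in HpC and 180.1 to 478 in pC. It needs no scaling between libraries, and the HpC libraries sat next to the hepatocytes on it. Other ratios placed HpC otherwise. Apoe to Apoc1 was 2.82 to 3.17 in H, 6.20 to 14.2 in HpC and 7.93 to 13.9 in pC. Apoe to Apoa1 was 3.18 to 3.55, 8.65 to 82.2 and 50.3 to 401 in the same order. Apob to Apoa1 was 0.168 to 0.218, 0.436 to 3.28 and 0.279 to 0.839. In these, HpC was clear of H and overlapped pC. In Apoc1 to Apoc3, HpC overlapped both groups.

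**Figure D3:**
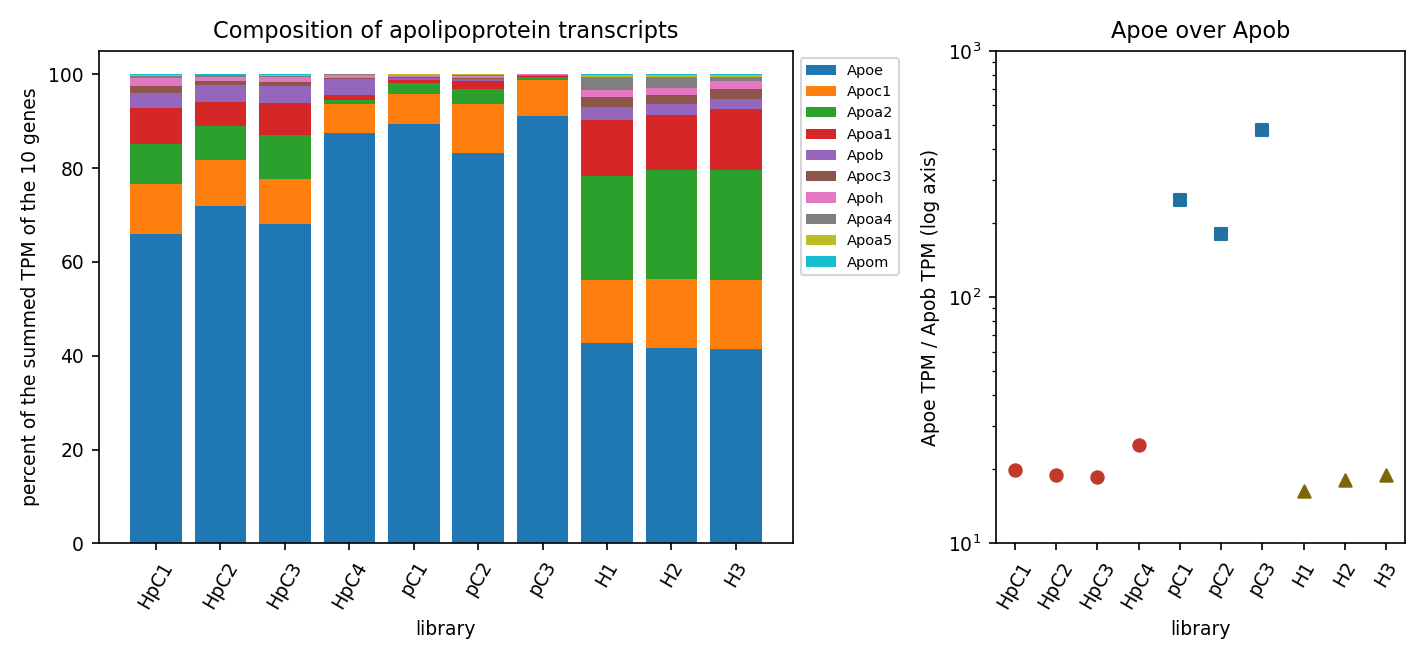
Left, each gene's percent of the summed TPM of the 10 apolipoprotein genes in each library (stacked bars to 100%). Right, the ratio of Apoe TPM to Apob TPM in each library on a log axis, which was 16.3 to 18.9 in H, 18.6 to 25.1 in HpC and 180.1 to 478 in pC.

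In order of level by group mean, hepatocytes ran Apoe, Apoa2, Apoc1, Apoa1, Apob, Apoc3, Apoa4, Apoh, Apoa5 and Apom, where Apoc1 and Apoa1 overlapped across libraries, as did Apoc3, Apoa4 and Apoh in turn. Both cholangiocyte groups ran Apoe, Apoc1, Apoa2, Apoa1, Apob, Apoh, Apoc3, Apoa4, Apoa5 and Apom. There Apoe stood clear of the next gene in both groups and Apoc1 did so in pC, while all later neighbours overlapped across libraries.

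In scaled TPM the libraries of a group kept nearly the same order in gene after gene. In all 10 genes the HpC libraries ranked HpC1, HpC3, HpC2 and HpC4, and in 9 of the 10 the pC libraries ranked pC2, pC1 and pC3, with Apoe the exception. The mean log2 level of the 22 hepatocyte markers gave the same order, at 5.96, 5.15, 4.51 and 3.10 in HpC and 4.81, 4.57 and 2.98 in pC. These scores were 4.68 ± 1.21 (SD, n = 4) in HpC and 4.12 ± 0.99 (n = 3) in pC, a difference of 0.56 (two-sided exact permutation test, p = 0.486), against 10.46 ± 0.08 (n = 3) in H. These orders depended on scaling, since the factor of a library is shared by all its genes and by the score. On TPM as deposited HpC3 was above HpC1 in all of the genes but Apoa4 and Apoh. Apob, for example, was at 8.07% of the hepatocyte level in HpC1 and 13.8% in HpC3. What part hepatocyte RNA in the sorted cells has in the levels was not tested.

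Each gene was also set against the hepatocyte score of its own library, as its log2 level minus that score. On this measure Apob was at 1.45, 1.94, 1.93 and 2.85 in HpC1 to HpC4, at 0.218, 0.180 and 0.225 for the pC libraries, and at 0.811 to 1.05 in H. All HpC libraries were above all others, and HpC4, the library with the lowest score of its group, had the highest value. The difference between HpC and pC was 1.83 (two-sided exact permutation test over 35 splits, p = 0.0286, the smallest that 4 against 3 libraries can give). Apoc1 was at 3.12 to 3.66 in HpC, 4.32 to 5.40 in pC and 3.41 to 3.57 in H, a difference of -1.44 between HpC and pC (exact p = 0.0286). Apoe was at 5.76 to 7.47, 7.63 to 8.96 and 5.05 to 5.08 in the same order, a difference of -1.85 (exact permutation test, p = 0.0571). Relative to the mean of the 22 hepatocyte markers, HpC thus overlapped hepatocytes in Apoc1, lay between hepatocytes and pC in Apoe, and lay above both in Apob. These places depended on the reference. Alb alone stood at 8.13%, 4.58%, 8.71% and 4.97% of the hepatocyte level in HpC1 to HpC4. That was above the shares of Apob, Apoe and Apoc1 in each of these libraries, so relative to Alb HpC lay below hepatocytes in all of them. Apoh had a difference of 0.73 between HpC and pC (exact p = 0.0571) and Apoa1 one of 0.96 (exact p = 0.143), and the remaining 5 genes had differences of -0.51 to 0.19. These are 10 tests with unadjusted p-values, and no gene is called on them.

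**Figure D4:**
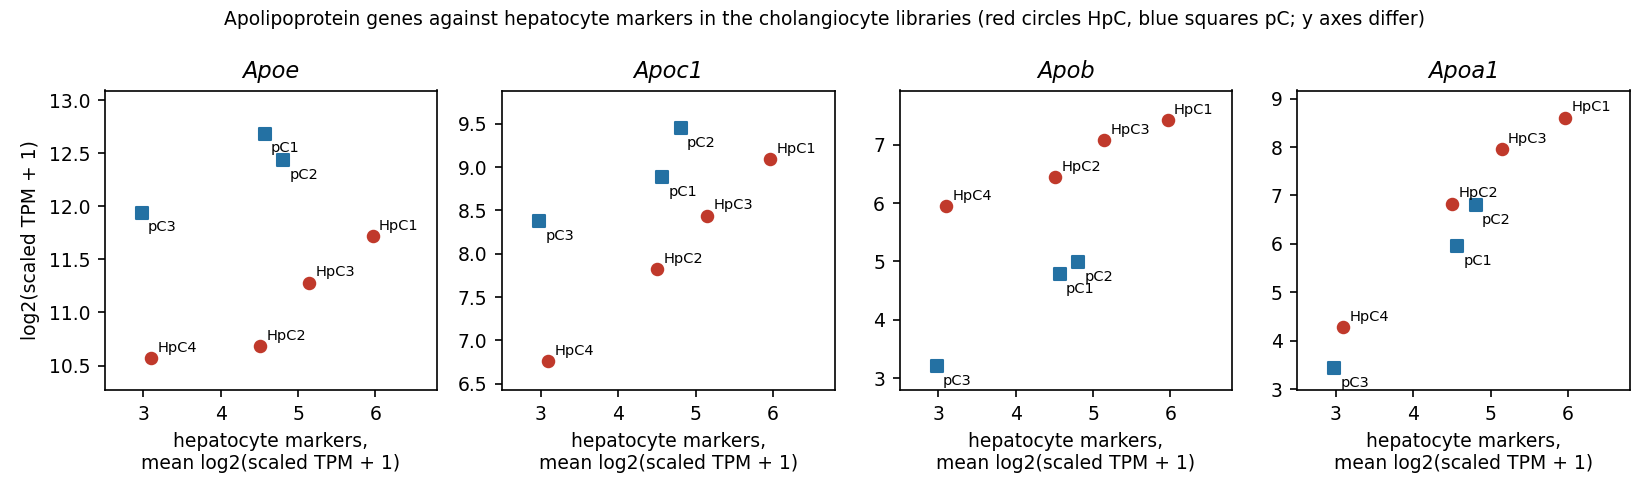
Level of Apoe, Apoc1, Apob and Apoa1 in each cholangiocyte library, as log2(scaled TPM + 1), against the mean log2 level of the 22 hepatocyte markers in the same library (HpC as red circles, pC as blue squares; y axes differ). At like marker levels the pC libraries lie above HpC in Apoe and Apoc1 and below them in Apob. In Apoa1 the groups overlap, and HpC2 (113 scaled TPM) and HpC4 (18.5) lie above the pC libraries of like marker level (61.3 and 110.1 for pC1 and pC2, 9.80 for pC3).

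Other genes of lipoprotein biology passed between HpC and pC about as often as genes in general. Over 5 lists, 3 of the 61 genes tested passed (4.92%), against 4.54% of all genes. Of 10 further apolipoprotein genes, 9 were tested and 0 passed (limma; 0 also at an unadjusted p under 0.05), with a median log2 difference of 0.06. The estimates farthest from 0 were those of Clu (-0.49), which encodes the chaperone apolipoprotein J, Apon (0.48) and Saa2 (-0.35), an acute-phase apolipoprotein. Clu was higher in both cholangiocyte groups than in hepatocytes. It was at 6072 ± 993 scaled TPM across HpC, 8727 ± 2641 in pC and 1791 ± 378 in H, a log2 difference from H of 1.77 in HpC (adjusted p = 0.000216) and 2.26 in pC (adjusted p = 6.35e-05). The other 8 tested were lower than H in both groups. Apoc2 and Apoc4 overlap an annotated readthrough gene, which makes their values uncertain.

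Of 11 genes for lipoprotein assembly, 1 passed between HpC and pC, with a median log2 difference of 0.48. Sort1 encodes sortilin, a sorting receptor that binds apolipoprotein B in the Golgi. It was at 21.6, 18.7, 16.0 and 16.6 scaled TPM across HpC1 to HpC4, against 47.4, 40.9 and 31.6 across pC1 to pC3 and 0.629 to 1.40 across H. It was higher than H in both cholangiocyte groups (adjusted p = 5.18e-07 in HpC and 1.55e-07 in pC, limma) and lower in HpC than in pC, with a log2 difference of -1.08 ± 0.20 (adjusted p = 0.0137). The call was lost without pC1 (adjusted p = 0.0668) and without pC2 (adjusted p = 0.0687). Mttp, which loads lipid onto nascent apolipoprotein B, was at 2.33 to 5.40 in HpC, 0.912 to 2.23 in pC and 128 ± 6.02 (SD, n = 3) in H (log2 difference 0.76, adjusted p = 0.153). Cideb, which aids particle lipidation, was at 3.83 to 8.10, 2.25 to 3.42 and 160.4 ± 10.8 (log2 difference 0.70, adjusted p = 0.136). Neither passed the test, although the HpC and pC ranges did not overlap in either. Against H, 9 of the 11 assembly genes were lower and 1 higher in HpC, and 9 were lower and 2 higher in pC.

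Of 14 receptor and efflux genes, 13 were tested and 1 passed between HpC and pC. Cd36 encodes a scavenger receptor that takes up oxidised lipoproteins and long-chain fatty acids. It was at 108, 42.4, 74.5 and 100.5 scaled TPM across HpC1 to HpC4, against 3.49, 5.25 and 3.78 across pC1 to pC3 and 49.0, 69.8 and 62.4 across H1 to H3. HpC thus overlapped hepatocytes, and both were above all pC libraries. The fold over pC was 19.5 and the log2 difference was 3.92 ± 0.30 (adjusted p = 0.000188, limma), a call kept in all 24 alternative settings. Against H its log2 difference was 0.35 ± 0.30 in HpC (adjusted p = 0.334) and -3.57 ± 0.32 in pC (adjusted p = 6.39e-06). Of the 13, 7 were lower and 4 higher than H in HpC, and 7 were lower and 2 higher in pC. Of all genes, 29.2% were lower and 30.7% higher than H in HpC, and 28.6% and 31.1% in pC. Vldlr, the VLDL receptor, was higher in both groups, with log2 differences from H of 3.29 in HpC (adjusted p = 5.18e-06) and 2.95 in pC (adjusted p = 1.91e-05).

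Of 12 genes for remodelling of particles in plasma, 0 passed between HpC and pC (limma; 0 also at an unadjusted p under 0.05), and 11 were lower than H in each cholangiocyte group. The estimates farthest from 0 were those of the lipase inhibitor Angptl4 (0.99), Lcat (0.91), which esterifies cholesterol on high density lipoprotein, and the lipase regulator Angptl8 (0.59). Of 16 regulators of apolipoprotein genes, 1 passed. Nr5a2, a nuclear receptor known for its action on bile acid synthesis genes, was at 13.0, 5.86, 9.38 and 11.9 scaled TPM across HpC1 to HpC4, against 24.2, 25.2 and 18.5 across pC1 to pC3 and 21.9, 25.6 and 25.9 across H1 to H3. All HpC libraries were below all others, with a log2 difference from pC of -1.14 ± 0.24 (adjusted p = 0.0246). The call was lost without HpC3 (adjusted p = 0.0684), without pC1 (adjusted p = 0.103), without pC2 (adjusted p = 0.116), with HpC and pC fitted without H (adjusted p = 0.0762) and with the replicate numbers as a block (adjusted p = 0.0573). Hnf4a, the nuclear receptor that drives many apolipoprotein genes in hepatocytes, was chosen for mention after its values were seen, with a log2 difference of 0.41 ± 0.21 between HpC and pC (adjusted p = 0.346).

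Gene sums rest on how reads were assigned to transcripts. For 9 of the 10 genes the leading transcript was protein coding in every group. For Apoe, Apoe-202, annotated as a processed transcript, made up 65.3% of the gene's TPM for HpC, 66.0% for pC and 68.5% for H. With protein-coding transcripts alone, the log2 difference of Apoe between HpC and pC was -1.27 (adjusted p = 0.0269, limma), and the 10 genes summed to 0.187% of TPM for HpC, 0.400% for pC and 4.22% for H. The leading transcript of Apob held 57.3% in HpC, 57.9% in pC and 56.2% in H, and that of Apoa2 held 54.2%, 52.1% and 50.2%.

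The genes whose pattern was most like the mean profile of the 10 were hepatocyte metabolic genes. Over all 10 libraries, by the root mean square difference of centred log2 profiles, the nearest of 12913 protein-coding genes were Rdh7 (0.21), Sult2a2 (0.26), Mbl2 (0.27), Cyp2c39 (0.28) and Adh1 (0.28). Over the 7 cholangiocyte libraries, among 6915 genes, they were Cyp2e1 (0.29), Tat (0.31), Adh1 (0.33), Arg1 (0.38) and Hpd (0.39), of which all but Adh1 are in the list of hepatocyte markers. Apob and Apoe, looked up alone after their values had been seen, had different neighbours over the 7 libraries. Nearest to Apob were Gc (0.16), Serpina1a (0.18), Fgg (0.25), Serpina10 (0.27) and Trf (0.28), genes for secreted plasma proteins, with Serpina1a uncertain because it has near-identical copies. Gc, the vitamin D carrier, was at 305, 154, 196 and 104 scaled TPM across HpC1 to HpC4, against 43.3, 39.6 and 13.1 in pC1 to pC3. Nearest to Apoe were Fads1 (0.18), Slc38a4 (0.22), Acss2 (0.24), Cyp2j5 (0.25) and Fads2 (0.26). Fads1 and Fads2 encode fatty acid desaturases, and Fads2 was at 28.2, 20.9, 29.9 and 21.6 over HpC1 to HpC4, against 81.3, 70.0 and 61.0 in pC1 to pC3. These likenesses are descriptions over libraries that share scaling and hepatocyte marker level.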

How the data were processed

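RNA was measured by single-end sequencing of low-input libraries from 10 sorted mouse liver samples (4 HpC, 3 pC, 3 H). The authors deposited 1 table per library with TPM for 85276 Ensembl transcripts, and the submitters' processing notes name kallisto, DESeq and mm10, without versions or roles. TPM sums to the same total in every library, so depth and counting error are unknown and no count test could be run. The design provided for limma should the values be normalised, and limma was used.

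Transcripts were joined to GENCODE M21 genes by identifier: 81927 matched, and 3349 did not and were left out, with 4.22% to 9.06% of a library's TPM. Summed TPM of 29972 genes was filtered at 1 TPM in at least 3 libraries, which left 14765, and rescaled by an unweighted TMM-style factor (30% of log ratios and 5% of mean levels trimmed at each end). Log2(scaled TPM + 1) of all 10 libraries was fitted with 1 coefficient per group in limma 3.58.1 (R 4.3.3) with a trended prior, and p-values were adjusted by Benjamini-Hochberg over the 14765 genes. Simulated data had 14765 genes, the group sizes of HpC and pC, and each gene's own spread as independent noise. There 51% of genes changed by a log2 of 1 and 94% of those changed by 2 were recovered, with 8 false calls. Only genes above a minimum mean level were changed, and shifts shared by the genes of a library were not simulated. The rates thus need not hold for genes of wide spread such as Apoa1. Tables and figures used Python 3.11.15, pandas 2.3.3 and matplotlib 3.10.9.

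The apolipoprotein genes, marker lists and pathway lists were chosen with earlier results of these data known. All 10 genes are named, and from each list those past 5% in HpC against pC, or else the 3 with the largest differences, with the 5 genes nearest to the mean profile (for the 7 cholangiocyte libraries, at a mean log2 level of at least 3). Clu, Mttp, Cideb, Hnf4a, Vldlr, Col3a1, Rgs5 and the enterocyte markers are given in more detail after their values were seen. So are the hepatocyte and cholangiocyte markers named at an unadjusted p under 0.05. Alternatives covered scaling, pseudocount, filter, samples fitted, array weights, prior, each library left out, and the replicate numbers as a block. Levels relative to hepatocyte markers were compared by exact permutation tests. RefSeq promoters were searched on both strands. Same-numbered libraries of different groups are not described as related in the labels, and the numbers were not used as pairs.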

Additional observations from a re-analysis of the deposited data

How the results depend on the processing

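All 10 apolipoprotein genes were lower than H in both cholangiocyte groups under each of 24 alternative settings. Between HpC and pC, the number of apolipoprotein genes called lower went from 1 to 0 with median ratio scaling, a pseudocount of 0.25, no filter (Apoe adjusted p = 0.512), HpC and pC fitted without H, the replicate block and, added after seeing the data, without HpC4 and pC3. It was 0 to 1 with each library left out. The number called higher was 0 with HpC and pC alone and without HpC1 and HpC2, and 1 to 1 with each library left out. With the numbers as a replicate block, Apob had a log2 difference of 2.65 (adjusted p = 0.0257) and Apoe one of -1.12 (adjusted p = 0.101). Deviations of 9 same-numbered library pairs correlated at -0.079 to 0.117 and those of 24 other pairs at -0.236 to 0.197, so the numbers are not taken as pairs.

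Assembly genes called lower went to 0 under the replicate block (Sort1 adjusted p = 0.0607) and were 0 to 1 with a library left out, and 2 were higher with array weights. Receptor genes called higher were 2 with no filter and 3 with array weights. Regulators called lower were 2 on deposited TPM and without HpC4 and pC3, 0 with HpC and pC alone, 4 with array weights (1 then higher) and 0 to 2 with a library left out. The share of all genes called was not taken under these settings, so the counts cannot be set against genes in general. The median share of the hepatocyte level was 3.03% (HpC) and 2.02% (pC) on deposited TPM, and 1.03% to 2.05% and 0.506% to 0.961% with a library left out. The summed share with protein-coding transcripts alone was 0.187%, 0.400% and 4.22% in HpC, pC and H, and with a library left out 0.295% to 0.383%, 0.862% to 1.08% and 5.82% to 5.99%.

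Among genes that did not pass in HpC against pC, the sign of the log2 difference turned for 4. Apoa4 was at -0.34 on deposited TPM, -0.36 with array weights, -0.79 without HpC1 and HpC2, -0.27 without HpC4 and pC3, and -0.98 to 0.76 with a library left out. Apom was at -0.11 on deposited TPM, -0.22 without HpC1 and HpC2, and -0.067 to 0.61 with a library left out. Apoa2 and Apoc3 were at -0.39 and -0.37 without HpC1 and HpC2, and ran from -0.37 to 1.56 and from -0.11 to 1.60 with a library left out. Relative to Alb alone rather than the hepatocyte markers, Apoa5 turned to -0.54, Apoc3 to -0.67 and Apoh to -0.00369. Apoc3 relative to the markers was at -0.00254 with a pseudocount of 0.25, and at -0.17 to 0.51 with a library left out. The causes of these changes were not tested. Depth is unknown, so the counting error of values near 0, such as Apoa5 in HpC4, is unknown too. The 4 against 3 libraries leave wide intervals for the genes that did not pass.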
